A study of Mus musculus with 42 samples.

Results

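Notch signalling was followed by the RNA levels of 9 of its genes through the differentiation of mouse embryonic stem cells (ES cells) into embryoid bodies, the spherical aggregates that these cells form when they differentiate in culture. Members were listed by gene symbol as 3 receptors (Notch1, Notch2, Notch3), 3 ligands (Dll1, Dll3, Jag1), the fringe enzyme Lfng and 3 target genes (Hes1, Hes5, Hey1). Of these 10 symbols, 9 matched an identifier among the 14296 genes of the files, and Hes5 is not analysed here. All samples came from the ES cell line W9.5 on a 129X1/SvJ background, so that no genotype or drug was compared. The cells, at low passage, differentiated spontaneously after withdrawal of LIF, the cytokine that holds ES cells in self-renewal. Cultures were harvested every 6 h from 0 h to 120 h in biological duplicate, replicates A and B, which gave 21 time points and 42 libraries of stranded poly-A RNA. The line is a single one, and the embryoid bodies are a mixture of cell types that the bulk libraries average.

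Notch receptors sit in the membrane of one cell and are engaged by Delta or Jagged ligands on its neighbour. Ligand pulling opens the receptor to cleavage by an ADAM protease and then by gamma-secretase, and the freed intracellular domain enters the nucleus, where it joins the DNA-binding protein RBPJ and a Mastermind coactivator to switch on the Hes and Hey repressors. In the embryo the pathway is known for holding neural progenitors undifferentiated, for the oscillating segmentation clock of the presomitic mesoderm and for cell choices in vessels, and in ES cells for a part in the exit towards neural fates.

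Levels are in log2 CPM (read counts scaled to library size, on a log2 scale), in which a difference of 1 is a doubling. A change was called at an adjusted p under 0.0001 in limma, fitted over all genes and all libraries. All 9 members changed over the course by the F test over time points, as did 74.6% of all genes tested, so this count does not set them apart. Their adjusted p ran from 4.55e-18 for Dll1 to 1.63e-07 for Dll3. The range of the duplicate means over the course was 3.36 for Dll1 (10.3-fold), 2.83 for Notch3, 2.69 for Lfng, 2.64 for Hey1, 2.39 for both Notch2 and Dll3, 1.98 for Notch1, 1.34 for Jag1 and 1.32 for Hes1. The median range over all genes was 1.502, so Jag1 and Hes1 varied less than the median gene and Dll1 lay at the 83.5th percentile. In bulk libraries, fewer cells that express a gene and less RNA per cell cannot be told apart.

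**Figure D1:**
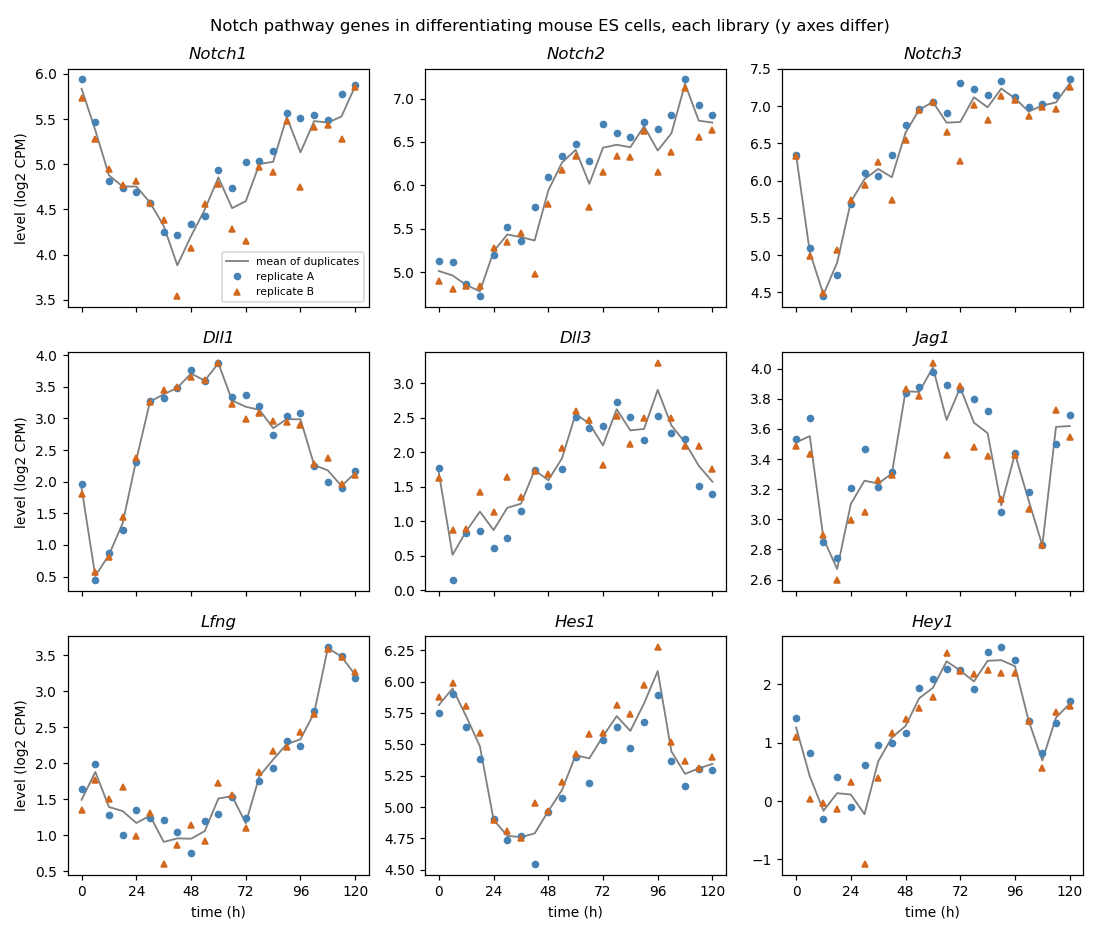
Level of each Notch pathway gene (log2 CPM, vertical axis, a separate scale for each gene) against time in hours; circles are replicate A, triangles replicate B and lines the mean of the duplicates. Dll1 and Notch3 dip within the first 12 h, Hes1 and Notch1 reach their lowest means at 36 h and 42 h, and Lfng reaches its highest mean at 108 h.

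Library depth, as reads counted on genes, was 29692082.5 in the median and ran from 10120972 to 51652434, and 3 reads corresponded to between 0.0571 and 0.316 CPM. The least covered value of a member was that of Hey1 in replicate B at 30 h, with 4 reads, and every value of Notch1, Notch2, Notch3 and Hes1 rested on at least 226 reads. Pooled over time points, the SD between duplicates ran from 0.11 for Dll1 to 0.36 for Hey1, against a median of 0.18 over all genes. Replicate B lay apart at 42 h, 66 h, 72 h and 96 h for several members, and counts are also given without these 4 libraries.

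Counted by interval, 2 members changed from 0 to 6 h (Dll1 and Notch3, both lower), where 26.3% of all genes did. From 6 to 24 h the count was 2 (Dll1 higher and Hes1 lower), with 11.4% of all genes, and from 0 to 24 h it was 1 (Hes1 lower), with 22.7%. Only Dll1 was called from 24 to 48 h (higher, 8.97% of all genes) and from 96 to 120 h (lower, 1.94%). No member was called from 48 to 72 h or from 72 to 96 h in limma, where 9.38% and 3.39% of all genes were, although 4 and 5 of the 9 had an unadjusted p under 0.05 (48.8% and 40.2% of all genes), and with voom weights Lfng was called in the second of these. From 48 to 120 h 3 were called (Notch1 and Lfng higher, Dll1 lower), with 25.2% of all genes, and from 0 to 120 h 2 (Notch2 and Lfng higher), with 23.0%. A single member is 11.1% of the 9, so these counts move in coarse steps against the background.

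Against 0 h, 2 or 3 members were called at every time point after 6 h except 24 h. The count was 3 at 30 h (26.9% of all genes), 36 h (28.7%), 42 h (32.0%), 48 h (30.4%), 54 h (28.8%) and 72 h (25.2%). It was 2 at 12 h (26.3%), 18 h (20.4%), 60 h (25.4%), 66 h (25.2%), 78 h (22.1%), 84 h (26.2%), 90 h (25.0%), 96 h (23.5%), 102 h (26.6%), 108 h (35.4%) and 114 h (29.7%). Each of these comparisons uses the same pair of 0 h libraries, so the counts are not independent.

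Over the 20 consecutive steps of 6 h, 2 of 180 member changes were called, both from 0 to 6 h, where 1.77% of all such gene changes were. The unadjusted p was under 0.05 for 38 of the 180 (21.1%), against 20.9% over all genes. No single step of Notch2, Lfng or Notch1 was called, which does not show how their changes were spread over the steps. That of Lfng from 102 to 108 h was 0.90 (adjusted p = 0.0042, limma).

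The following 3 upstream sequences are shown because the genes they belong to carry the earliest and the latest changes of the course: Dll1 and Notch3 fell together in the first 6 h, and Lfng rose last. Those of Dll1 and Notch3 run up to the base before the start of a RefSeq transcript on GRCm38.p6, and that of Lfng stops before the GENCODE start of the gene, which lies upstream of its RefSeq start. Capitals mark matches to TGGGAA (the core of the RBPJ site) or CACGTG (an E box, bound by several Hes and Hey proteins) on either strand.
Lfng (chr5:140607091-140607319, plus strand): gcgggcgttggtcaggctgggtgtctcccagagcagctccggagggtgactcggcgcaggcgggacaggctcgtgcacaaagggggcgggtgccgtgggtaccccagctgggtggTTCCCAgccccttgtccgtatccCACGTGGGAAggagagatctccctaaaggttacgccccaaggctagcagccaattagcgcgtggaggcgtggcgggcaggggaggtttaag
Dll1 (chr17:15376933-15377182, minus strand): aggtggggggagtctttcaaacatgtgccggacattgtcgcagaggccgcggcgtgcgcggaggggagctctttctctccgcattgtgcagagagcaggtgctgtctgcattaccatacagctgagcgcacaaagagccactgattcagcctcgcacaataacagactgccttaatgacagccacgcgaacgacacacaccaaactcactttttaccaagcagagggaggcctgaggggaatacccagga
Notch3 (chr17:32166891-32167140, minus strand): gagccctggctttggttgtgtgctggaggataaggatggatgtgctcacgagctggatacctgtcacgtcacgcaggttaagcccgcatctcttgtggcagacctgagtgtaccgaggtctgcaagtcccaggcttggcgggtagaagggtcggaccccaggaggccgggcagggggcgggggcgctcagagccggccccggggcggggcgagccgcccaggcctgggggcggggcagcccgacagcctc
The Lfng stretch held TGGGAA in both orientations, 135 and 108 bases before the RefSeq start, and the second of these overlapped a palindromic CACGTG that began 112 bases before it. Neither motif occurred in the Dll1 or Notch3 stretches. Of 32851 promoter windows of the same table, each 250 bases before to 50 bases after a start, 25.6% held TGGGAA, 7.15% held CACGTG and 42.5% held the N box CACNAG. Among the other members, the windows of Notch1, Notch2, Dll3 and Jag1 and both windows of Dll1 held no TGGGAA, and that of Hes5 held it 2 times. The N box was found 3 times in the Notch1 window, 2 times in that of Notch3 and 1 time each in those of Notch2, Lfng and Dll1. Hes1 and Hey1 had no entry in the table. These matches are letters in a window and were not measured as binding sites.

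Among the ligands, Dll1 (Delta-like 1, on chromosome 17 at 15367354 to 15376872 of GRCm38) had the widest course. Its level was 1.97 in replicate A and 1.81 in replicate B at 0 h, 0.45 and 0.57 at 6 h, 2.32 and 2.38 at 24 h, 3.76 and 3.66 at 48 h, 3.87 and 3.87 at 60 h, and 2.16 and 2.11 at 120 h. Both cultures therefore fell at 6 h, rose through 24 h to a plateau between 30 h and 60 h, and came back at 120 h to a mean 0.25 above that at 0 h. From 0 to 6 h the log2 change of Dll1 was -1.38 with an SE of 0.14 (adjusted p = 3.90e-09, limma), a 2.60-fold decrease. From 6 to 24 h it rose by 1.84 (3.57-fold, adjusted p = 3.93e-11) and from 24 to 48 h by 1.36 (2.57-fold, adjusted p = 1.37e-08).

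Against 0 h, Dll1 was lower at 6 h and 12 h and higher at each of the 12 time points from 30 h to 96 h. All of these calls held without the 4 B libraries named above, and 13 of the 14 held when any single library of the comparison was left out, the exception being 84 h. The fall from 48 to 120 h was -1.57 (2.98-fold lower, adjusted p = 3.04e-10). Its last part, from 96 to 120 h, was -0.85 with adjusted p = 8.89e-05, and this call was lost when any of its 4 libraries was left out (adjusted p up to 0.0030), with scaling to total reads (2.03e-04) and without the 4 B libraries (1.01e-04). Samples taken only daily miss the early dip, because the level at 24 h differed from that at 0 h by 0.46 (SE 0.14, adjusted p = 0.0069), which did not pass the threshold.

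Dll3, a divergent Delta that acts mainly inside the cell against Notch signalling, was more variable between duplicates than Dll1. It stood at 1.77 and 1.63 at 0 h in replicates A and B, 0.15 and 0.88 at 6 h, 2.52 and 2.60 at 60 h, 2.52 and 3.29 at 96 h, and 1.39 and 1.75 at 120 h. The lowest mean, at 6 h, coincided in time with that of Dll1, but the change from 0 h was -1.19 (SE 0.29, adjusted p = 0.0011) and was not called, nor was that of any other time point. The highest mean, 2.90 at 96 h, rested on replicate B, and in replicate A the highest level was reached at 78 h (2.73).

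Jag1, a ligand of the Jagged class, moved over a narrower range. Its levels were 3.53 and 3.49 at 0 h, 2.74 and 2.60 at 18 h, 3.98 and 4.04 at 60 h, 2.83 and 2.83 at 108 h and 3.69 and 3.54 at 120 h, so that a trough at 18 h, a crest at 60 h and a second trough at 108 h were present in both replicates. The value at 18 h was the only one called against 0 h, and that call was lost when any of its 4 libraries was left out (adjusted p up to 0.0013) and with voom precision weights. The rise from 24 to 48 h was 0.75 (SE 0.15, adjusted p = 2.52e-04) and did not pass the threshold.

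Of the receptors, Notch3 was called lower than at 0 h early, Notch1 in mid-course and Notch2 at no time. Over the whole course Notch2 and Notch3 were the closest pair of members (Pearson correlation 0.90 over the duplicate means). Notch3 (chromosome 17, 32120820 to 32166852) stood at 6.34 and 6.33 in replicates A and B at 0 h, 5.10 and 4.98 at 6 h, 4.45 and 4.49 at 12 h, 4.74 and 5.06 at 18 h, 5.69 and 5.74 at 24 h and 7.36 and 7.25 at 120 h. The 6 h and 12 h libraries were all below both 0 h libraries, and both libraries at 120 h were above them. From 0 to 6 h the log2 change of Notch3 was -1.30 (2.46-fold lower, SE 0.20, adjusted p = 4.41e-06), although without either 0 h library or without replicate B at 6 h the adjusted p was 1.44e-04, 1.36e-04 and 2.13e-04. At 12 h the difference from 0 h was -1.87 and held whichever library was left out. At 18 h it was -1.44, with adjusted p = 1.76e-04 once replicate A of that time was left out.

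Notch2 (chromosome 3, 98013527 to 98150361) had its lowest mean at 18 h and its highest at 108 h. Its values were 5.13 and 4.90 at 0 h, 4.72 and 4.83 at 18 h, 6.10 and 5.78 at 48 h, 7.22 and 7.12 at 108 h, and 6.81 and 6.64 at 120 h. The change from 0 to 120 h was 1.71 (3.27-fold, SE 0.21, adjusted p = 1.48e-07). Notch2 was higher than at 0 h at 11 time points, 54 h, 60 h and each from 72 h to 120 h, of which 5 (90 h and 102 h to 120 h) held when any library of the comparison was left out. No step between consecutive time points was called for it.

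Notch1 (chromosome 2, 26457903 to 26516663) went down and returned. Levels were 5.94 and 5.73 at 0 h, 4.69 and 4.82 at 24 h, 4.22 and 3.54 at 42 h, 4.34 and 4.07 at 48 h, and 5.88 and 5.85 at 120 h. It was lower than at 0 h at 30 h, 36 h, 42 h, 48 h, 54 h, 66 h and 72 h, and only the calls at 42 h (-1.95) and 48 h (-1.63) held whichever library was left out. The return from 48 to 120 h was 1.66 (3.16-fold, SE 0.23, adjusted p = 7.67e-07). Over the whole course, from 0 to 120 h, the change was 0.028 (SE 0.23, adjusted p = 0.93). Exons of Notch1 overlap those of 0610009E02Rik on the opposite strand, and the strand setting of the counting is not given in the sources used here.

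**Figure D2:**
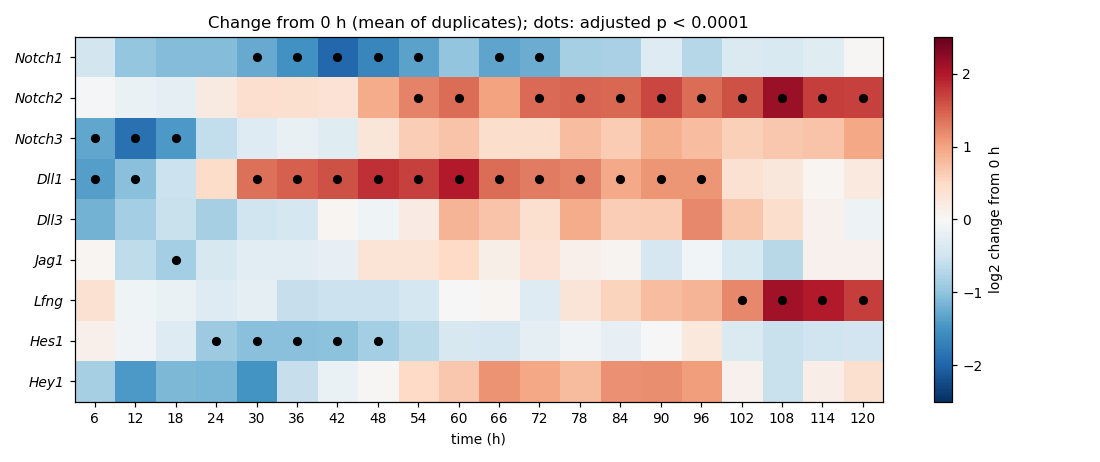
Change of each Notch pathway gene from 0 h (colour, log2 scale, mean of duplicates) at each later time point in hours; black dots mark an adjusted p under 0.0001 in limma. Notch1 carries 7 dots, all lower, Notch2 carries 11, all higher, Dll1 carries 2 lower and 12 higher, and Dll3 and Hey1 carry none.

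The duplicates of the receptors parted at some time points. Replicate B lay below replicate A at 42 h by -0.68 for Notch1, -0.77 for Notch2 and -0.61 for Notch3, and at 72 h by -0.87, -0.55 and -1.04. At 96 h the difference was -0.76 for Notch1, -0.50 for Notch2 and -0.038 for Notch3. All 3 receptor genes have over 8000 bases of exon. The 2062 genes of that length whose mean reached 2 log2 CPM had a median difference of -0.34 at 42 h and -0.29 at 66 h. It was -0.17 at 72 h and -0.18 at 96 h. At 6 h, 30 h, 102 h and 114 h it was -0.16, -0.17, -0.16 and -0.17, so 72 h and 96 h did not stand apart by this median. Over genes of any length whose mean reached 2 log2 CPM the median stayed between -0.030 and 0.043 at every time point. The part of transcript length in the receptor values was not tested beyond 2 added fits.

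Without the 4 B libraries, Notch3 was called higher than at 0 h at 11 time points (54 h, 60 h and each from 72 h to 120 h) in addition to its lower values at 6 h to 24 h, against 0 higher calls with them. In that fit Notch1 was lower at 13 time points and Notch2 higher at 13. With the trend of each library on exon length removed, Notch1 was lower at 14 time points, Notch2 was higher at 13, and Notch3 again had 0 higher calls and 3 lower. For Notch3 the change from 0 to 120 h was 0.96 (SE 0.20, adjusted p = 2.28e-04, limma) in the full fit. Without the 4 B libraries the estimate was the same, 0.96. These libraries were picked because they lay apart from their duplicates in these data. Leaving them out lowers the spread, so the added calls are not separate evidence. At 42 h, 66 h, 72 h and 96 h that fit holds replicate A alone.

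**Figure D3:**
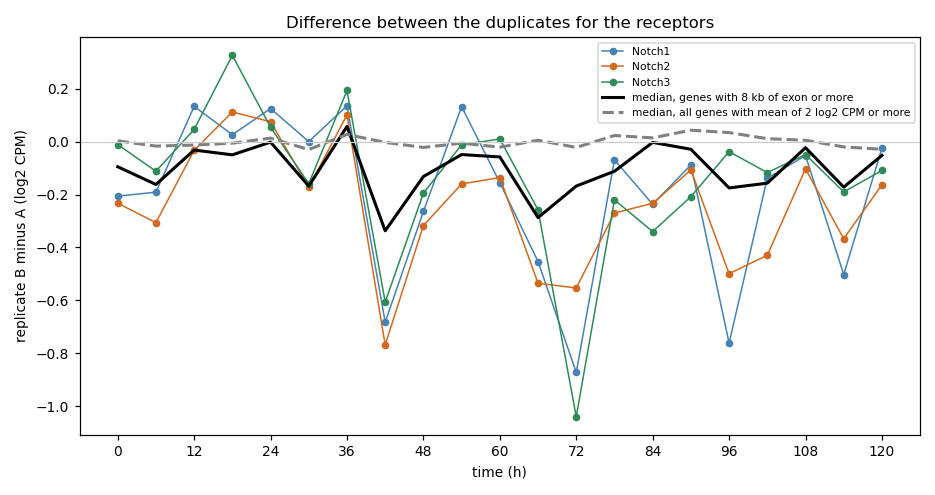
Difference between replicate B and replicate A (log2 CPM, vertical axis) against time in hours for the 3 receptor genes (points joined by lines), with the median over genes of 8000 or more exonic bases (black) and over all genes whose mean reached 2 log2 CPM (dashed). The receptors reach -0.77 at 42 h and -1.04 at 72 h while the dashed line stays between -0.030 and 0.043.

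Lfng, the fringe glycosyltransferase that extends the fucose on Notch and so changes its response to Delta and Jagged ligands, was low up to 72 h and rose late. Its levels were 1.64 and 1.35 in replicates A and B at 0 h, 1.21 and 0.60 at 36 h, 0.76 and 1.15 at 48 h, 2.24 and 2.43 at 96 h, 3.62 and 3.58 at 108 h and 3.19 and 3.27 at 120 h. Every library from 102 h on was above every library up to 72 h. From 48 to 120 h Lfng rose by 2.27 (4.84-fold, SE 0.21, adjusted p = 1.07e-09) and from 0 to 120 h by 1.73 (3.33-fold, adjusted p = 1.20e-07). Against 0 h it was higher at 102 h, 108 h, 114 h and 120 h, and the first of these was lost when any of its 4 libraries was left out (adjusted p up to 0.0016). The rise from 72 to 96 h was 1.17 (adjusted p = 2.28e-04) and passed the threshold only with voom precision weights.

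Of the target genes, Hes1 encodes a repressor that oscillates in many progenitors and also represses its own gene. Its levels were 5.75 and 5.88 at 0 h, 5.90 and 5.99 at 6 h, 4.90 and 4.90 at 24 h, 4.77 and 4.75 at 36 h, 4.96 and 4.97 at 48 h, 5.89 and 6.28 at 96 h and 5.29 and 5.40 at 120 h. Both replicates were at their trough from 24 h to 48 h. From 6 to 24 h Hes1 fell by 1.05 (2.07-fold, SE 0.14, adjusted p = 1.57e-06), with 1.14e-04 once replicate B at 6 h was left out. From 0 to 24 h it fell by 0.91 (1.89-fold, adjusted p = 6.34e-06), a call that was lost without replicate B at 0 h or either library at 24 h (adjusted p up to 3.86e-04).

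Compared with 0 h, Hes1 was lower at 5 time points, 24 h to 48 h, and those at 30 h and 36 h held whichever library was left out. With scaling to total reads in place of the normalization of the authors it was lower at 8. Dll1 rose to its plateau while Hes1 was at its trough. Across the 21 duplicate means the correlation of Hes1 with Dll1 was -0.44, given as a description because consecutive time points are not independent. Replicate B lay below replicate A at 2 of the 21 time points for Hes1, against 18 for Notch2.

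Hey1, another bHLH repressor, had the lowest mean level of the members. Its levels were 1.43 and 1.10 at 0 h, -0.30 and -0.031 at 12 h, 0.63 and -1.08 at 30 h, 2.64 and 2.19 at 90 h, 0.83 and 0.57 at 108 h and 1.71 and 1.62 at 120 h. The 12 h values were below, and the 90 h values above, both values at 0 h. No time point was called against 0 h, where the largest differences were -1.49 at 30 h, with 4 reads in replicate B, and -1.43 at 12 h. Its decline between 96 h and 108 h, from 2.42 and 2.20 to 0.83 and 0.57, came as Lfng rose from 2.24 and 2.43 to 3.62 and 3.58.

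Scaling to total reads moved the median of all genes, from -0.047 to -0.27 for the change from 0 to 6 h and from 0.0031 to 0.18 for 48 to 120 h, and the share of calls that were higher from 45.0% to 26.0%, and from 56.4% to 71.4%. For 0 to 24 h the share went from 43.6% to 28.8%, and for 48 to 72 h from 59.7% to 79.8%. Relative to these shifts, the directions of the members called in each interval did not turn. From 0 to 6 h the uncalled changes of Jag1 and Hes1 changed sign, from 0.042 to -0.18 and from 0.13 to -0.087.

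Levels can be compared between genes only per length. In CPM per kb of exon, Hes1 was the most abundant member at 0 h (27.6 ± 1.67, SD, n = 2), followed by Notch3 (10.004 ± 0.055), Notch1 (4.02 ± 0.41), Notch2 (3.004 ± 0.343) and Jag1 (1.96 ± 0.043). Dll3 (1.14 ± 0.079) and Lfng (1.13 ± 0.16) overlapped, and Dll1 (0.88 ± 0.069) and Hey1 (0.74 ± 0.12) were last. At 48 h Dll1 had moved to the fourth place with 3.10 ± 0.16, and Notch1 to the sixth with 1.30 ± 0.17. At 120 h Hes1 (20.0 ± 1.02) and Notch3 (19.5 ± 1.04) overlapped, Notch2 stood at 9.82 ± 0.79, Notch1 at 4.09 ± 0.050 and Lfng, next in order, at 3.74 ± 0.15. With the longest transcript as the length, Notch1 passed Notch2 and Notch3 at 12 h, and no rank changed at 0 h. At 48 h Hey1 passed Lfng, and at 120 h the order of Dll3, Dll1 and Hey1 was reversed. At 96 h Notch1 passed Dll3, Dll1 passed Lfng and Hey1 passed Jag1.

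**Figure D4:**
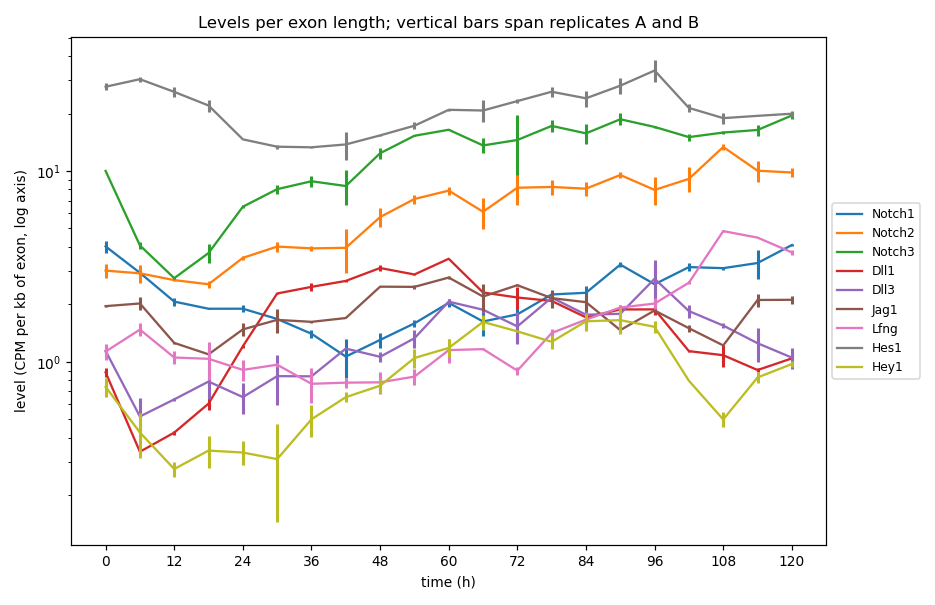
Level of each Notch pathway gene in CPM per kb of exon (log axis) against time in hours; lines are means and vertical bars span replicates A and B. Hes1 lies above the other genes until 120 h, where its bar (19.2 to 20.7) overlaps that of Notch3 (18.8 to 20.3).

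The members did not move as a block. Of 36 pairs, 4 had a Pearson correlation above 0.8 over the 21 duplicate means and 5 were below 0. The closest were Notch2 with Notch3 (0.90), Dll3 with Hey1 (0.85), Notch3 with Dll3 (0.82) and Notch3 with Hey1 (0.81), and the lowest was Notch1 with Dll1 (-0.55). Among all genes whose mean reached 0 log2 CPM, those with the most similar courses were Irs4 (0.97) and Slc16a3 (0.95) for Dll1, Osbpl3 (0.97) and Atp8a1 (0.97) for Notch3, Pxdn (0.98) and Zfp629 (0.98) for Notch2, and Fignl2 (0.95) and Esyt1 (0.95) for Notch1. For Lfng they were Nuak1 (0.97) and Adam8 (0.97), for Hey1 Ostm1 (0.96) and Cdkn1b (0.95), for Dll3 Tmem98 (0.94) and Gstt2 (0.93), for Hes1 Whamm (0.89) and Fam76a (0.87), and for Jag1 Miat (0.88) and Ddit4l (0.86). These correlations share their libraries and are descriptions.

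The remaining machinery of the pathway was read from 6 lists with 53 genes, of which 47 were in the files. From 0 to 6 h, 5 of the 47 rose (10.6%, against 11.8% of all genes) and 12 fell (25.5%, against 14.5%), and from 0 to 24 h 3 rose (6.38%, against 9.90% of all genes) and 16 fell (34.0%, against 12.8%). From 48 to 120 h 14 rose (29.8%, against 14.2%) and 2 fell (4.26%, against 1572 of the 14296 genes), and from 0 to 120 h 6 rose and 6 fell (12.8% each, against 12.9% and 10.1%). In all, 10 genes fell over the first 24 h and rose over the last 72 h, namely Aph1b, Dner, Furin, Mib2, Neurl1a, Notch4, Nrarp, Numbl, Psen2 and Tle3, and 1, Rbpj, did the reverse. The share of all genes called in both intervals was not counted, so a fall and return cannot be read as particular to the pathway. With scaling to total reads the counts were 1 higher and 18 lower from 0 to 24 h, and 16 and 1 from 48 to 120 h. Of all 14296 genes, 957 were then higher and 2362 lower from 0 to 24 h, and 2513 and 1009 from 48 to 120 h.

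**Figure D5:**
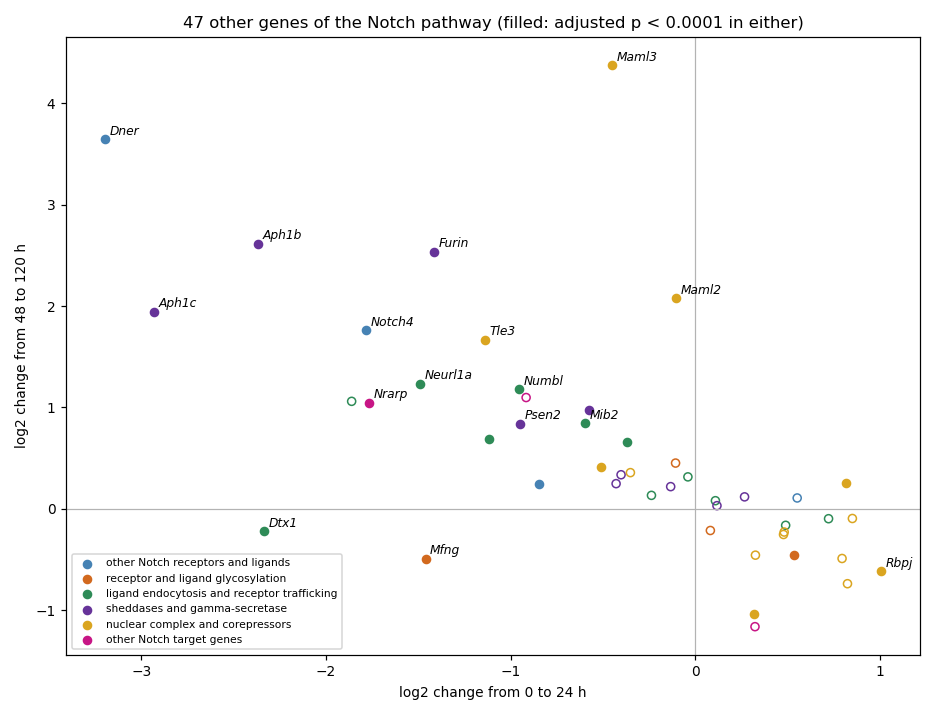
Log2 change from 0 to 24 h (horizontal axis) and from 48 to 120 h (vertical axis) of the 47 other genes of the Notch pathway, coloured by list; filled points passed an adjusted p under 0.0001 in at least one interval. The upper left holds the 10 genes that fell and later rose, with Rbpj alone among the named genes at the lower right.

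Among the other receptors and ligands, 3 of the 4 in the files fell from 0 to 24 h, where 12.8% of all genes did. Notch4, a receptor known mainly from endothelium, was at 5.15 and 5.06 in replicates A and B at 0 h, 3.19 and 3.20 at 6 h, 1.53 and 1.46 at 48 h and 3.23 and 3.28 at 120 h, a change of -1.91 from 0 to 6 h (adjusted p = 9.30e-07) and of 1.76 from 48 to 120 h. Of the endothelial markers in the files, Pecam1 fell from 0 to 120 h (-2.71), Kdr rose (mean of -3.85 to 2.37 log2 CPM) and Tek was not called (0.61), and Cdh5 and Tie1 are not analysed here. Jag2 fell by 0.85 from 0 to 24 h (adjusted p = 9.60e-05) and stood at 5.93 and 5.90 at 60 h. Dlk1, a Delta-like protein without the ligand domain that binds Notch, rose by 2.68 from 0 to 120 h (6.42-fold, adjusted p = 1.56e-07). Dner was at 23 and 19 reads at 0 h, 6 and 1 at 24 h and 70 and 54 at 120 h.

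In the nuclear complex, RBPJ itself was among the abundant transcripts. Rbpj stood at 8.06 and 7.94 at 0 h, 9.06 and 8.96 at 24 h and 7.63 and 7.65 at 120 h, a rise of 1.06 from 0 to 6 h (2.09-fold, adjusted p = 1.65e-08) and a fall of 0.62 from 48 to 120 h (adjusted p = 6.24e-05). The Mastermind coactivators all rose from 0 to 120 h: Maml1 by 1.04 (adjusted p = 1.10e-07), Maml2 by 4.56 (adjusted p = 3.64e-12) and Maml3 by 5.15 (adjusted p = 4.26e-13). Maml2 had 5 and 7 reads at 0 h, against 182 and 147 at 120 h, and Maml3 went from 17 and 17 reads to 801 and 566. The acetyltransferase Kat2b fell by 1.13 and the corepressor Tle1 by 0.60 over the same interval, while Tle3 fell by 1.14 from 0 to 24 h and rose by 1.66 from 48 to 120 h. Ep300, another acetyltransferase, rose by 1.08 from 0 to 6 h (adjusted p = 8.26e-05).

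Of the proteases and gamma-secretase subunits, 4 of 10 fell from 0 to 24 h, where 12.8% of all genes fell, namely Furin, which processes the receptor precursor (-1.42), Psen2 (-0.95), Aph1b (-2.37) and Aph1c (-2.93). From 48 to 120 h Furin rose by 2.54 (5.80-fold, adjusted p = 1.38e-10), Aph1b by 2.61, Adam10, the main sheddase of Notch, by 0.97 (adjusted p = 5.41e-08) and Psen2 by 0.84. Aph1b and Aph1c are closely similar copies, so that reads may be split between them.

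Among the genes of ligand endocytosis and receptor trafficking, 5 of 12 fell from 0 to 24 h, again against 12.8% of all genes. These were the ubiquitin ligases Dtx1 (-2.34, adjusted p = 2.02e-11), Neurl1a (-1.49), Dtx3 (-1.12) and Mib2 (-0.60), and the adaptor Numbl (-0.95). Numbl had first risen by 1.22 from 0 to 6 h (adjusted p = 3.06e-07). From 48 to 120 h Neurl1a (1.23), Numbl (1.18), Mib2 (0.84) and Numb, an inhibitor of Notch (0.66), rose. Dtx4 rose by 2.35 from 0 to 120 h (5.11-fold, adjusted p = 2.39e-09).

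In the glycosylation list, Mfng, a fringe like Lfng, went the other way from it: 3.41 and 3.53 at 0 h, 2.05 and 1.96 at 24 h and 1.97 and 1.79 at 120 h, a fall of 1.59 from 0 to 120 h (3.002-fold, adjusted p = 2.55e-07). Poglut1 rose by 0.53 from 0 to 24 h (adjusted p = 6.64e-05). Of the other target genes, Nrarp, a feedback inhibitor that Notch induces, was at 3.06 and 3.19 at 0 h, 1.17 and 1.54 at 24 h and 2.79 and 2.78 at 120 h. It fell by 2.08 from 0 to 6 h (4.22-fold, adjusted p = 2.81e-10) and rose by 1.05 from 48 to 120 h (adjusted p = 1.88e-05). Hes6 and Hey2 were not called in either of the intervals from 0 to 24 h and 48 to 120 h.

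Markers of the cells that the cultures could hold moved along with these changes. The summed level of 6 pluripotency markers (Pou5f1 the most abundant) went from 3404 and 3669 CPM in replicates A and B at 0 h to 1659 and 1812 CPM at 48 h and 1582 and 1532 CPM at 120 h. Not all of them fell throughout. From 48 to 120 h Nanog rose by 1.43, Klf4 by 2.76 and Esrrb by 1.59, where 14.2% of all genes rose. Pou5f1 fell by 1.43 over that interval, and Sox2 and Zfp42 were not called. The 3 neural progenitor markers in the files, of 7 listed (Nes the most abundant), went from 17.8 and 14.4 CPM at 0 h to 355 and 328 CPM at 108 h, the time of the highest Lfng, and to 201 and 186 CPM at 120 h. The 3 presomitic markers in the files, of 6 (T the most abundant), stood at 5.23 and 5.37 CPM at 0 h and at 59.1 CPM in replicate A against 245 CPM in replicate B at 96 h, the library in which Dll3 and Hes1 had their highest values. From 0 to 120 h T and Rspo3 rose and Mesp2 fell by 2.13. Tbx6, Msgn1 and Mesp1 are not analysed here.

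The summed level of the 5 primitive endoderm markers (Dab2 the most abundant) went from 6.84 and 7.57 CPM at 0 h to 42.5 and 43.8 CPM at 120 h. Of them 3 rose (Dab2, Gata4 and Foxa2), while Gata6 and Sox7 (-0.80) were not called. The sum of the 3 endothelial markers in the files, of 6, went from 95.8 and 92.6 CPM at 0 h to 21.8 and 20.3 CPM at 120 h, with Pecam1 lower and Kdr higher. At 0 h the means were 6.54 log2 CPM for Pecam1, 0.0077 for Tek and -3.85 for Kdr. The fall of the sum is therefore that of Pecam1 and does not describe the list. The sum of 5 fibroblast markers, of 6, went from 24.3 and 28.1 CPM to 102 and 91.4 CPM. Thy1, the most abundant of these at 0 h, fell by 2.55, and the other 4 rose, among them Col1a1 by 3.50. From 0 to 120 h 5 of 6 pluripotency markers fell, where 10.1% of all genes did, and 3 of 3 neural markers rose, where 12.9% did, Nes by 3.53 and Sox1 by 3.79. The part of cell composition in the levels of the Notch pathway genes was not tested.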

How the data were processed

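RNA levels were taken from 42 libraries, with replicate A and B at each of 21 time points read from the sample labels. The authors used Trim Galore for trimming, TopHat2 for alignment to mm10 and HTSeq for counting on GENCODE vM2 genes, kept genes above 1 CPM in at least 2 samples, normalized with edgeR and applied voom; tool versions and the strand setting of the counting are not given in the sources used here. The deposited values are log2 CPM as the authors made them. Solving the formula of voom (offset 0.5) for the read count gave whole reads for every value, with a largest deviation of 2.91e-08. Positions and exon lengths come from GENCODE vM21 on GRCm38, which matched 14177 of the 14296 identifiers.

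Changes were tested with limma 3.58.1 in R 4.3.3 (lmFit, eBayes with a trend) on the deposited log2 values, with a factor of 21 time points over all libraries (21 residual degrees of freedom). Adjustment for multiple testing was by Benjamini-Hochberg over all genes of a contrast. Log2 values for 24 h against 0 h were simulated over 14296 genes, as normal noise with the residual SD of each gene around its mean. Of the genes given a log2 change, 52 of 100 with a change of 1 and 94 of 100 with a change of 2 were recovered. There were 0 false calls. The simulated noise was independent between genes and held no deviation shared within a library, so this does not give the false calls in the real data. The changed genes were drawn from those with a mean above 2 log2 CPM. Dll3, Lfng and Hey1 have means below that, and the noise of low read counts was not simulated. Genes were listed as not analysed here where they are not among the 14296. Levels per length used the union of exons. The pairing of the letters A and B was checked by the correlation of deviations between libraries of the same letter.

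Members, lists and tests were chosen with earlier results of these data known. Named were the members, the pathway genes past the threshold from 0 to 24 h, 48 to 120 h or 0 to 120 h, the most abundant marker of each list, other markers chosen after their values were seen and, by correlation, the 2 genes most like each member. Python 3.11.15, numpy 2.4.6, pandas 2.3.3 and matplotlib 3.10.9 were used. Sequences are from RefSeq on GRCm38.p6. Alternatives were a replicate block, voom weights, adjustment over all contrasts, a threshold of 0.05, scaling to total reads, an offset of 2 reads, only genes whose mean reached 0 log2 CPM and each library left out, and, added after the data were seen, the 4 B libraries left out and the trend with exon length removed.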

Additional observations from a re-analysis of the deposited data

How the results depend on the processing

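With 2 libraries per time point the spread between duplicates limits the calls, and a library left alone at a time point is assumed to vary like the others. All 9 members passed the F test under every alternative. Counts moved as follows. A looser threshold also calls more of all genes, and the matching shares of all genes are not given here. The counts therefore show only how far the member calls moved. With an adjusted p under 0.05 they were 4 (0 to 6 h), 6 (6 to 24 h), 7 (0 to 24 h), 5 (24 to 48 h), 3 (48 to 72 h), 4 (72 to 96 h), 5 (96 to 120 h), 6 (48 to 120 h) and 4 (0 to 120 h), with 17 consecutive steps. Without the 4 B libraries they were 3 (6 to 24 h), 3 (0 to 24 h), 2 (24 to 48 h), 0 (96 to 120 h), 5 (48 to 120 h) and 3 (0 to 120 h), with 4 steps. Removing the length trend gave 2 (0 to 24 h), 4 (48 to 120 h) and 3 steps. Scaling to total reads gave 1 (48 to 72 h) and 0 (96 to 120 h), voom weights gave 1 (72 to 96 h) and 3 steps, and adjustment over all contrasts gave 4 steps. The filter on low values gave 3 steps and changed no other call, and the offset changed none. Leaving out single libraries gave 1 to 2 (0 to 6 h), 1 to 2 (6 to 24 h), 0 to 1 (0 to 24 h), 1 to 1 (24 to 48 h), 0 to 0 (48 to 72 h), 0 to 0 (72 to 96 h), 0 to 0 (96 to 120 h), 3 to 3 (48 to 120 h), 2 to 2 (0 to 120 h), 9 to 9 (any time) and 1 to 3 steps.

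The paper describes duplicate time courses, which the letters A and B would mark. The main fit did not use this pairing, and it was used only in the fit with a replicate block. Over 210 pairs of libraries with the same letter the deviations correlated by 0.08 on average. Of these pairs 68.6% were positive and 47.1% were above 0.1, so the weak mean does not show that the letters are only names. The number of time points with B below A ran from 2 for Hes1 to 18 for Notch2. For the fit with the block the shares of all genes called are likewise not given. Its counts show only how far the member calls moved. With the replicate block the counts were 2 (0 to 24 h), 2 (24 to 48 h), 1 (48 to 72 h), 2 (96 to 120 h), 4 (48 to 120 h, with Notch2) and 3 (0 to 120 h, with Notch3 at an adjusted p of 5.52e-05), with 3 steps, and no call of the fit without the block was lost.

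No called change of a member turned. Of those not called, the following did. With scaling to total reads Jag1 from 0 to 6 h was -0.18, Hes1 from 0 to 6 h -0.087, Notch2 from 72 to 96 h 0.01 and Dll3 from 48 to 120 h 0.15. With the length trend removed Notch2 from 72 to 96 h was 0.13 and Notch1 from 0 to 120 h -0.24, and without the 4 B libraries Notch3 from 72 to 96 h was -0.18. Leaving out single libraries gave the following ranges. From 0 to 6 h Notch2 ran from -0.20 to 0.10 and Jag1 from -0.075 to 0.16. From 6 to 24 h Dll3 ran from -0.007 to 0.72 and Hey1 from -0.70 to 0.082. From 48 to 72 h Notch1 ran from -0.05 to 0.82 and Notch3 from -0.38 to 0.66. From 72 to 96 h Notch2 ran from -0.31 to 0.24, Notch3 from -0.20 to 0.84 and Hey1 from -0.035 to 0.19. Dll3 ran from -0.20 to 0.16 from 48 to 120 h and from -0.31 to 0.052 from 0 to 120 h, and Notch1 from -0.075 to 0.13 from 0 to 120 h. The cause was not tested.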
